A study of Mus musculus with 6 samples.

Results

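The genes described here encode, in the nucleus, the subunits of respiratory complexes II, III, IV and V of the mitochondrial inner membrane. They were chosen by symbol alone: protein-coding rows named Sdha to Sdhd or Cyc1, or with a symbol that starts with Uqcr, Atp5, or Cox followed by 4, 5, 6, 7 or 8. Of 49 matching rows among the 55401 gene rows of the count table, 45 had at least 10 counts in 3 libraries, and they comprised 4 genes of complex II, 9 of complex III, 15 of complex IV and 17 of complex V. All 45 passed the low-count filter of the test. The other 4 rows were Cox7b2, Cox8c and a second Atp5o row, each with 0 counts in every library, and Cox8b. Atp5s, coupling factor B, is included by its symbol although it is not a structural subunit of the enzyme. Usmg5, a small subunit of complex V, has another symbol in this annotation and is not among the 45.

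Hepa 1-6 cells, a mouse hepatoma line, were injected into the liver of mice, and F4/80+ cells, labelled macrophages, were isolated from the tumours 14 days later for RNA sequencing. F4/80 is a surface protein by which mouse macrophages are recognised. In the control group (3 libraries, genotype label WT Control) the tumours came from control cells, and in the Sms-OE group (3 libraries) from cells given extra Sms, which encodes spermine synthase, by lentivirus. The labels name no other treatment. The labels state neither the strain, age or sex of the mice nor whether each library came from its own animal, and a p-value here covers only the spread between these libraries.

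Complex II, succinate dehydrogenase, feeds electrons from succinate into ubiquinone and is also an enzyme of the citric acid cycle. Complex III hands electrons to cytochrome c, complex IV passes them to oxygen, and complex V, the ATP synthase, uses the proton gradient built on the way to make ATP. Apart from complex II, each of these complexes combines subunits encoded in the nucleus with subunits encoded in mitochondrial DNA. Alternatively activated macrophages are known for relying on oxidative phosphorylation, and classically activated ones for glycolysis.

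Libraries held 49833764 to 58154006 estimated counts. Levels are given as CPM, counts scaled to a common library size with TMM factors. Sms in the isolated cells was at 26.0, 28.3 and 26.2 CPM in the controls and 32.9, 33.2 and 33.2 CPM in Sms-OE, which does not check the labels, since the overexpression was in the tumour cells. The 10 macrophage markers summed to 6148 to 6334 CPM in the controls and 6603 to 7732 CPM in Sms-OE, with 3 higher, 2 lower and 5 that did not pass; Itgam and Cd14 were among the higher ones, and Aif1 (1.89-fold) and Cd68 (1.28-fold) were lower. Haemoglobin transcripts made up 0.00441% to 0.0225% of counts in 4 libraries and 0.485% and 0.512% in Sms-OE replicates 2 and 3, which stand apart in this. Over all 18277 genes tested, 2293 were higher and 2615 lower in Sms-OE at an adjusted p under 0.05 (edgeR's quasi-likelihood test, Benjamini-Hochberg over all genes tested), which is 26.9% in either direction. With library size as the only scaling the split was 2521 higher and 1788 lower.

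Subunit RNAs of all 4 complexes were lower in F4/80+ cells from Sms-OE tumours. Of the 45 genes, 41 fell, none rose and 4 did not pass the test, against a background of 14.3% of all genes tested that were called lower and 12.5% called higher. By complex, 4 of 4, 9 of 9, 12 of 15 and 16 of 17 genes fell, with median log2 fold changes of -0.72, -0.65, -0.65 and -0.72 for complexes II, III, IV and V. The median over the 45 genes was -0.66, and that over all genes tested was -0.0006. Each of the 41 called genes, and Atp5s, was lower in every Sms-OE library than in every control library; 23.3% of all genes tested showed that order and 20.8% the opposite one. Bulk RNA does not tell fewer cells that express a gene from less of its RNA in each cell.

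Added up by complex, all 4 sums were lower. Complex II genes summed to 525, 504 and 514 CPM in control replicates 1, 2 and 3 and to 339.6, 329 and 305 CPM in the Sms-OE replicates. Complex III genes summed to 674, 684 and 752 CPM against 459, 453 and 414 CPM. In both complexes the lowest control lay well above the highest Sms-OE library. Complex IV genes gave 1340.04, 1380.3 and 1625 CPM against 927, 1029 and 833 CPM, and complex V genes 2815, 2765 and 2996 CPM against 1864, 1796 and 1658 CPM. Here too the groups did not overlap. All 45 genes together took 0.540 ± 0.017% of counts in the controls and 0.354 ± 0.023% in Sms-OE (mean ± SD, n = 3; exact permutation p = 0.1, the smallest that 3 against 3 libraries allow, two-sided).

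**Figure D1:**
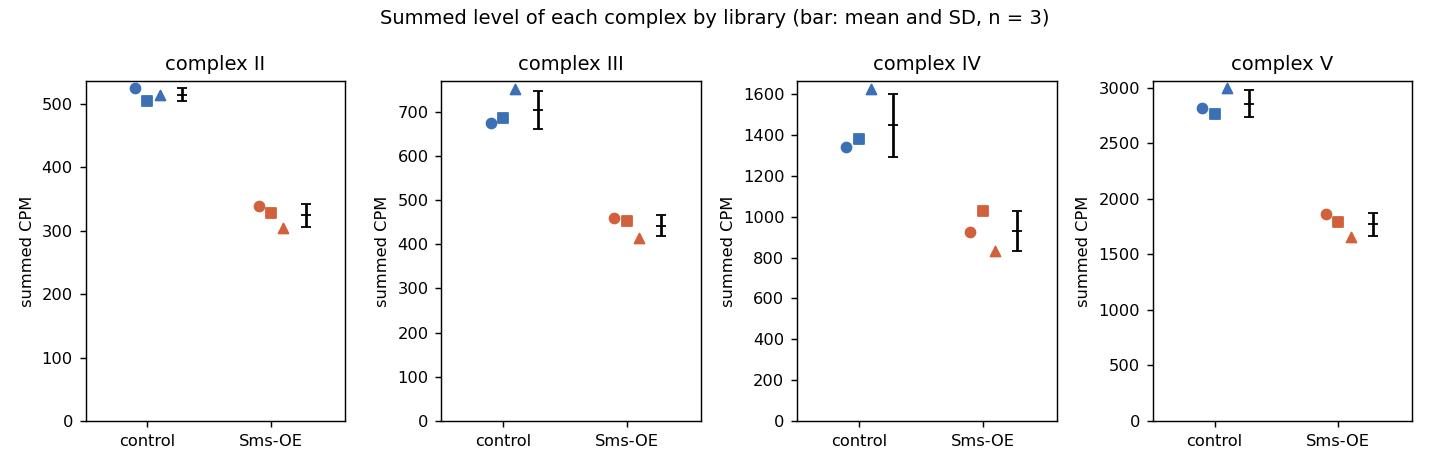
Summed level (CPM, axis from 0) of the nuclear-encoded subunit genes of each complex in the 3 control (blue) and 3 Sms-OE (orange) libraries, with circle, square and triangle for replicates 1, 2 and 3 and a black bar for mean and SD. In each complex the 3 Sms-OE points lie below the 3 control points; for complex II they are at 305 to 340 CPM against 504 to 525 CPM.

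The libraries within a group were not alike. Control replicate 3 was the highest control for 33 of the 41 genes that fell, and Sms-OE replicate 3 the lowest of its group for 32 of them. These libraries also stood at the ends for the share of counts from mitochondrially encoded genes, with 7.13% in control replicate 3 and 2.15% in Sms-OE replicate 3. Leaving out any 1 library left 38 to 41 genes lower and none higher, with medians of -0.74 to -0.60.

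All 4 genes of complex II fell. Sdha, the flavoprotein that oxidises succinate, was at 229, 219 and 211 CPM in the controls and 151, 149.98 and 146 CPM in Sms-OE (1.48-fold lower, log2 -0.56 ± 0.081 SE, adjusted p = 0.0013). Sdhb, the iron-sulphur subunit that carries the electrons onward, was at 91.5, 85.7 and 106 CPM against 64.9, 55.1 and 56.2 CPM (1.61-fold, log2 -0.69 ± 0.11 SE, adjusted p = 0.0017). Neither catalytic subunit had overlapping groups, and the Sms-OE libraries were closest together for Sdha. Sdhc, a membrane anchor, was at 77.2, 79.2 and 77.0 CPM against 49.5, 46.1 and 42.7 CPM (1.69-fold, log2 -0.76 ± 0.086 SE, adjusted p = 0.00046). Sdhd, its partner anchor, was at 127, 120.2 and 119.96 CPM against 74.3, 77.6 and 60.1 CPM (1.73-fold, log2 -0.79 ± 0.10 SE, adjusted p = 0.00081). For both anchors Sms-OE replicate 3 was the lowest library. Per kilobase of principal transcript, Sdhd had the highest control level of the complex, at 99.6 CPM per kb, and Sdhc the lowest, at 24.5 CPM per kb.

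In complex III all 9 genes fell. Cyc1, cytochrome c1, was at 70.5, 71.1 and 73.9 CPM in the controls and 49.1, 43.7 and 44.7 CPM in Sms-OE (1.57-fold lower, log2 -0.65 ± 0.085 SE, adjusted p = 0.00081). Uqcrfs1, the Rieske iron-sulphur protein, was at 86.6, 79.6 and 87.1 CPM against 56.2, 49.99 and 44.9 CPM (1.68-fold, log2 -0.74 ± 0.0999 SE, adjusted p = 0.00092). These are the redox-active subunits of the complex that the nucleus encodes. Uqcr10, a small subunit, had the largest fall of the complex, from 55.2, 53.8 and 73.4 CPM to 33.6, 30.7 and 25.8 CPM (2.02-fold, log2 -1.02 ± 0.14 SE, adjusted p = 0.0011). Uqcrh, the hinge protein between cytochrome c1 and cytochrome c, had the highest level per length of the complex (198 CPM per kb in the controls). It was at 95.9, 99.1 and 129 CPM against 63.9, 84.2 and 58.6 CPM (1.57-fold, log2 -0.65 ± 0.15 SE, adjusted p = 0.012), with Sms-OE replicate 2 nearest the controls. The core proteins Uqcrc1 and Uqcrc2 and the small subunits Uqcrb, Uqcrq and Uqcr11 fell by log2 values from -0.75 for Uqcrb to -0.50 for Uqcrc2. The call on Uqcr11 (adjusted p = 0.0295) was lost without control replicate 2 or 3 or Sms-OE replicate 1 or 3, with adjusted p of 0.0602 to 0.105.

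**Figure D2:**
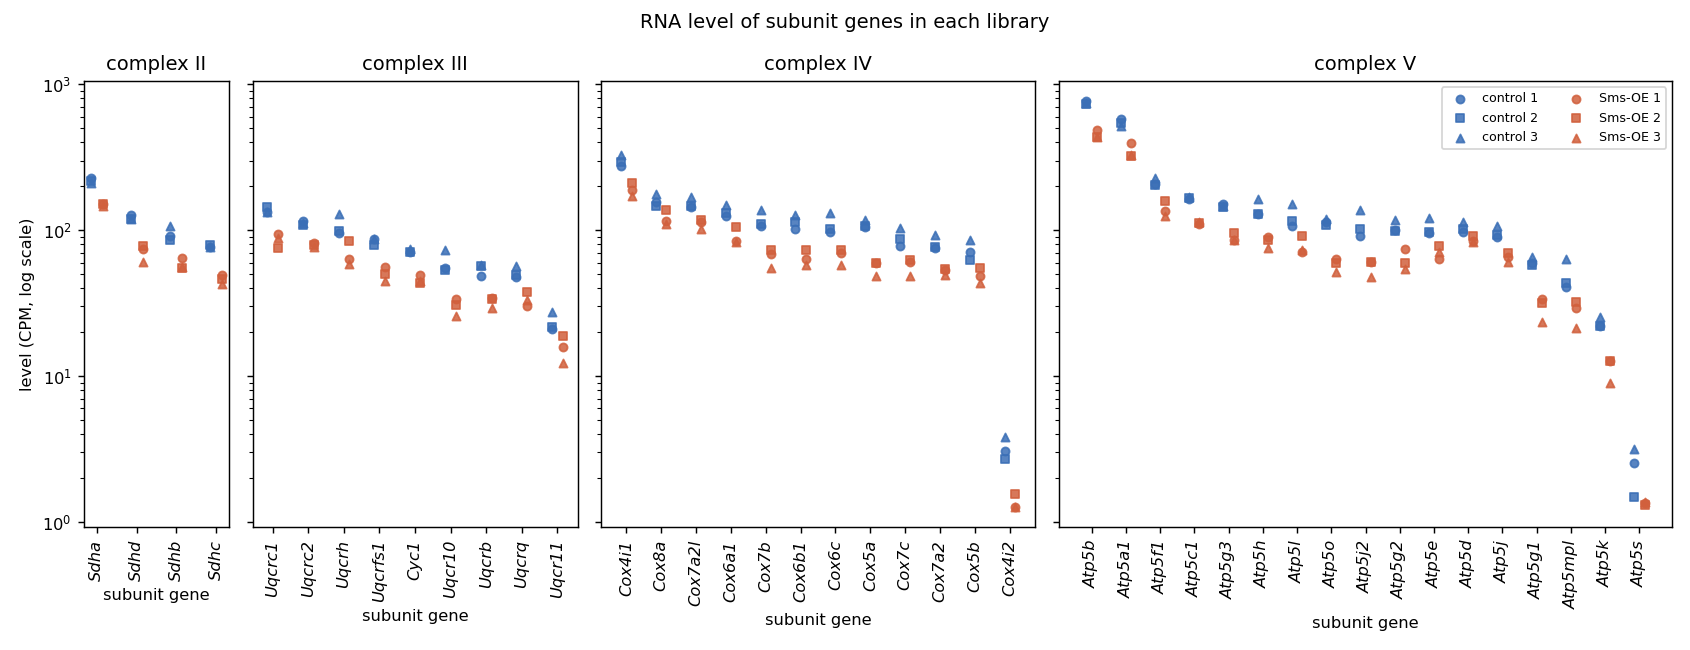
Level (CPM, log axis) of 42 subunit genes in each of the 6 libraries, ordered within a complex by control mean, blue for control and orange for Sms-OE, with a marker for each replicate number. Cox6a2, Cox6b2 and Cox7a1 are left out; for each gene shown the 3 Sms-OE points lie below the 3 control points, from Atp5b at 735 to 764 CPM in the controls down to Atp5s at 1.49 to 3.15 CPM.

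Of the 15 genes of complex IV 12 fell and 3 did not pass. Cox5a, a subunit on the matrix side of the enzyme, was at 106, 107 and 117 CPM in the controls and 59.4, 59.8 and 48.4 CPM in Sms-OE (1.97-fold lower, log2 -0.98 ± 0.10 SE, adjusted p = 0.0003). Cox6b1, on the intermembrane side, was at 101, 113 and 128 CPM against 63.1, 73.6 and 58.1 CPM (1.75-fold, log2 -0.81 ± 0.12 SE, adjusted p = 0.0012). Cox7b, encoded on the X chromosome, was at 107, 111 and 138 CPM against 68.4, 73.2 and 55.4 CPM (1.80-fold, log2 -0.85 ± 0.13 SE, adjusted p = 0.0016). In each of these 3 genes control replicate 3 was the highest library and Sms-OE replicate 3 the lowest.

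Cox4i1, the widespread form of subunit 4, had the highest level per length of complex IV (399 CPM per kb in the controls). It was at 274, 292 and 327 CPM against 188, 211 and 171 CPM (1.57-fold lower, log2 -0.65 ± 0.11 SE, adjusted p = 0.0023). Cox8a, second by level per length (291 CPM per kb), had the smallest fall of the complex, from 156, 146 and 178 CPM to 115, 137 and 109.7 CPM (1.33-fold, log2 -0.41 ± 0.11 SE, adjusted p = 0.0218). Its call was lost without control replicate 3, Sms-OE replicate 1 or Sms-OE replicate 3, with adjusted p of 0.0622 to 0.0805. Cox6c, Cox7c, Cox7a2, Cox5b, Cox6a1 and Cox7a2l fell by log2 values between -0.72 and -0.46. Cox7a2l is known as a factor that joins complexes III and IV into supercomplexes.

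Cox4i2, the form of subunit 4 known for induction by low oxygen and for its level in lung, was low and had the largest fall of the 41 genes. It was at 3.07, 2.72 and 3.83 CPM in the controls and 1.27, 1.57 and 1.28 CPM in Sms-OE (2.34-fold lower, log2 -1.23 ± 0.26 SE, adjusted p = 0.008). It made up 1.16%, 0.964% and 1.21% of the summed level per kb of Cox4i1 and Cox4i2 in the controls, and 0.702%, 0.770% and 0.772% in Sms-OE. These shares did not overlap, and the two-sided exact permutation p was 0.1 (0.225 adjusted over the 9 paralog shares tested).

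The 3 genes of complex IV that did not pass were isoforms of restricted tissue range. Cox6a2, the form of subunit 6a in heart and skeletal muscle, was at 0, 0.555 and 0 CPM in the controls and 0, 1.73 and 2.61 CPM in Sms-OE (adjusted p = 0.326). Cox7a1, the heart and muscle form of subunit 7a, was at 1.05, 2.22 and 2.396 CPM against 0.626, 3.37 and 2.24 CPM (log2 0.14 ± 0.53 SE, adjusted p = 0.876). Cox6b2, the testis form of subunit 6b, was at 0.501, 0.555 and 1.69 CPM against 0.303, 0.964 and 0.464 CPM (log2 -0.66 ± 0.61 SE, adjusted p = 0.472). In each of these genes the groups overlapped. Cox8b, the heart and muscle form of subunit 8, which was under the count minimum, had 0 counts in each control and 6, 26 and 47 counts in Sms-OE.

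Cox6a2 and Cox8b were highest in the libraries where other heart muscle genes were present. Myh6, the alpha myosin heavy chain of heart muscle, was at 0 CPM in the controls and Sms-OE replicate 1, and at 17.7 and 35.9 CPM in Sms-OE replicates 2 and 3. Mb, myoglobin, was at 0 CPM in the same 4 libraries and at 5.76 and 6.34 CPM in the other two. A list of 12 heart muscle genes, chosen after these values were seen, summed to 1.75 to 3.67 CPM in the controls, 1.54 CPM in Sms-OE replicate 1, and 50.7 and 85.1 CPM in Sms-OE replicates 2 and 3; Myl7 was at 0 in every library. These are also the libraries rich in haemoglobin, where the 7 erythroid markers found in the table summed to 5049.8 and 5014 CPM. Cox7a1 was highest in Sms-OE replicate 2, and next in control replicate 3. The part of other cells in the levels of these isoforms was not tested. Cox6a1, the widespread form of subunit 6a, was at 126, 131 and 149 CPM in the controls and 84.7, 105 and 82.9 CPM in Sms-OE.

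**Figure D3:**
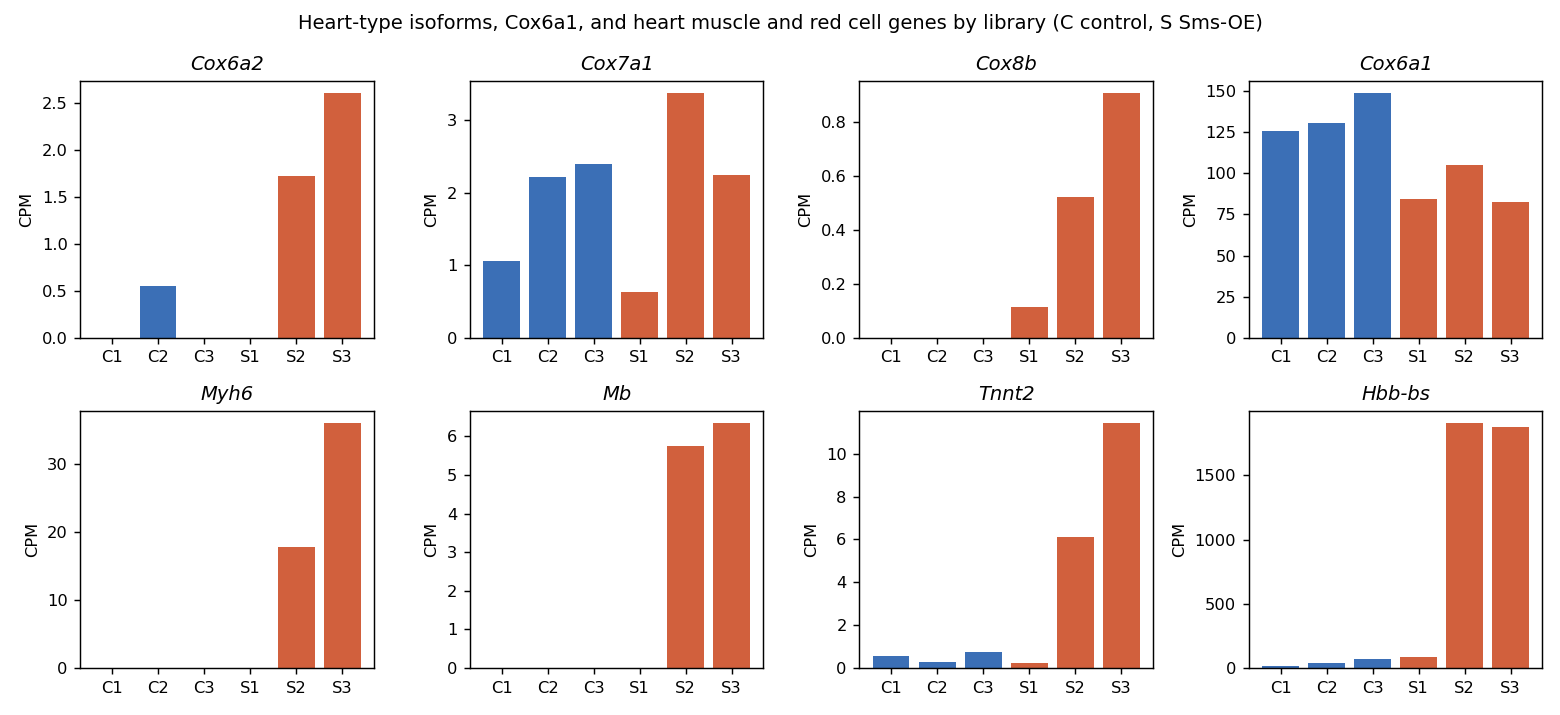
Bars give the level (CPM, from 0, each panel with its own scale) in control libraries C1 to C3 and Sms-OE libraries S1 to S3 of the muscle-type isoforms Cox6a2, Cox7a1 and Cox8b, the widespread Cox6a1, the heart muscle genes Myh6, Mb and Tnnt2, and the beta-globin Hbb-bs. Myh6 is at 0 in 4 libraries and at 17.7 and 35.9 CPM in S2 and S3, the libraries with most Cox6a2, Cox8b and Hbb-bs.

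In complex V all genes but Atp5s fell. Atp5b, the beta subunit that carries the catalytic sites, had the highest level per length of the complex (389.6 CPM per kb in the controls). It was at 764, 735 and 740.1 CPM in the controls and 488, 436 and 434 CPM in Sms-OE (1.65-fold lower, log2 -0.72 ± 0.093 SE, adjusted p = 0.00076). Atp5e, the epsilon subunit of the central stalk, was second by level per length (249 CPM per kb) and was at 95.0, 97.6 and 122 CPM against 63.1, 77.4 and 70.4 CPM (1.49-fold, log2 -0.57 ± 0.12 SE, adjusted p = 0.006). The alpha subunit Atp5a1 and the gamma subunit Atp5c1 fell by log2 values of -0.66 and -0.56. Atp5d, the delta subunit of the central stalk, had the smallest fall of the 41 genes, from 97.4, 102 and 114 CPM to 84.3, 91.5 and 83.3 CPM (1.21-fold, log2 -0.27 ± 0.090 SE, adjusted p = 0.0461). That call was lost without control replicate 2 or 3 or Sms-OE replicate 1 or 3, with adjusted p of 0.0955 to 0.136, and with DESeq2 size factors, upper-quartile factors or library size as the scaling, with adjusted p of 0.0647, 0.0827 and 0.109.

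The peripheral stalk holds the head of the enzyme still while the central stalk turns. Its subunit Atp5o, also called OSCP, was at 114, 108 and 119.7 CPM in the controls and 63.9, 59.2 and 51.3 CPM in Sms-OE (1.96-fold lower, log2 -0.97 ± 0.098 SE, adjusted p = 0.00027). The other stalk genes Atp5h, Atp5f1 and Atp5j fell by log2 values of -0.74, -0.61 and -0.57. Of the small membrane subunits, Atp5k and Atp5j2 fell by log2 values of -1.01 and -0.98, and Atp5mpl and Atp5l by -0.83 and -0.66. Usmg5, outside the rule and named after its values were seen, was at 55.5, 56.7 and 70.1 CPM against 39.0, 42.8 and 28.9 CPM (log2 -0.72 ± 0.15 SE, adjusted p = 0.0067). Atp5s was at 2.55, 1.49 and 3.15 CPM against 1.35, 1.30 and 1.37 CPM (log2 -0.83 ± 0.32 SE) and did not pass (adjusted p = 0.0837), although the groups did not overlap.

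The rotor ring of complex V is built of the c subunit, which 3 genes encode with different targeting sequences. Atp5g3 was at 152, 143 and 146 CPM in the controls and 86.3, 95.2 and 85.9 CPM in Sms-OE (1.65-fold lower, log2 -0.72 ± 0.081 SE, adjusted p = 0.00043). Atp5g1 was at 59.2, 58.1 and 65.9 CPM against 33.7, 31.9 and 23.3 CPM (2.06-fold, log2 -1.04 ± 0.14 SE, adjusted p = 0.00079), the largest fall of complex V. Atp5g2 fell by a log2 value of -0.76. The share of Atp5g1 in their summed level per kb of longest transcript was 3.90%, 3.97% and 4.12% in the controls and 3.47%, 3.45% and 2.80% in Sms-OE. The longest Atp5g1 transcript has 4715 bases and the principal one 691. With principal transcripts, chosen after the lengths were seen, the shares were 16.3%, 16.5% and 16.8% against 14.4%, 14.7% and 12.2%. On both scales the groups did not overlap, and the exact permutation p was 0.1 (0.225 adjusted over the 9 shares). The shares of Atp5g2 and Atp5g3 overlapped between the groups.

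Among the Cox7a genes the share of Cox7a2 was 47.0%, 46.6% and 47.6% in the controls and 44.1%, 42.5% and 44.2% in Sms-OE. That of Cox7a2l was 52.1%, 51.6% and 50.8% against 55.2%, 53.9% and 53.1%. Neither share overlapped between the groups (exact permutation p = 0.1, 0.225 adjusted, for each). Shares of Cox6a2, Cox6b2 and Cox7a1 overlapped, so that 4 of the 9 shares separated the groups. Those of Cox7a2 and Cox7a2l make up nearly all of the same total, so they mirror each other and do not count separately. The shares of the Atp5g genes also add up to a fixed total, so they depend on each other. No background was computed for such shares. By gene level, a different measure, 23.3% of all genes tested were lower in every Sms-OE library than in every control, and 20.8% were higher.

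The subunit genes have short transcripts, and transcript length moved with the fold changes of all genes in these libraries. The principal transcripts of the 45 genes had a median length of 714 bases, from 366 to 3171 bases, and those of all tested genes that have one a median of 2727 bases. Of the 4565 tested genes in the shortest 25% by longest transcript 17.7% were called lower. Of the 3538 in the shortest 25% by principal transcript, taken only over tested genes that have one, 29.5% were called lower, so these shares rest on different sets of genes. Of the latter, protein-coding genes with a mean of at least 10 CPM were called lower in 45.7%, against 91.1% of the 45 genes. These protein-coding genes had a median principal length of 1220 bases, from 204 to 1700, so they are not matched to the 45 in length. The 45 genes were not held to the minimum of 10 CPM. Among the 41 called genes, the 20 with the shorter principal transcripts had a median log2 fold change of -0.72 and the other 21 one of -0.66.

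When length and GC content of the longest transcript entered the fit as an offset in each library, 29 of the 45 genes were lower and none higher, against 9.68% of all genes called lower. In the sets of short genes just named that share was 5.91%, 14.2% and 21.5%. The median of the 45 moved from -0.66 to -0.41, with that of all genes at 0.064. By complex, 4 of 4, 5 of 9, 7 of 15 and 13 of 17 genes were lower, with medians of -0.44, -0.36, -0.30 and -0.48. Complex II kept all its calls, with Sdhc at -0.64 ± 0.077. Atp5g1, Cox5a, Atp5k, Cyc1 and Uqcr10 had log2 values of -1.09, -0.69, -0.69, -0.62 and -0.62, with adjusted p of 0.00055 to 0.0054. Cox7a2l (-0.0999), Cox8a (-0.15), Atp5d (-0.15) and Cox7c (-0.17) were among the 12 genes no longer called. The longest transcripts of Atp5l and Atp5g1 have 6310 and 4715 bases, and their principal ones 544 and 691. With principal lengths, chosen after the data were seen, Atp5g1 was at -0.64 (adjusted p = 0.0032) and Atp5l lost its call (adjusted p = 0.121). In that fit 28 of the 45 genes were lower against 10.1% of all genes, with a median of -0.38. An offset of this kind also takes up any difference in expression that runs with transcript length.

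**Figure D4:**
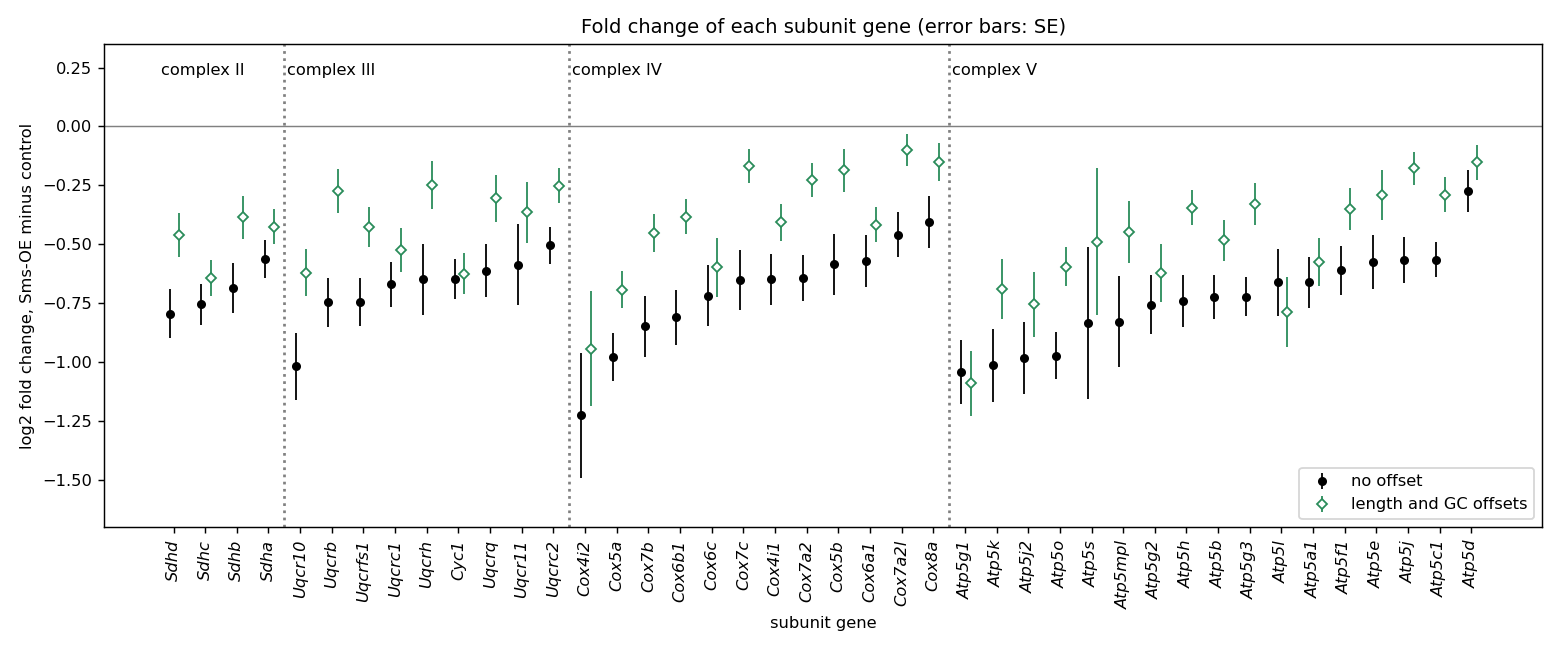
Log2 fold change of 42 subunit genes (Sms-OE minus control, error bars SE), ordered within each complex, without offsets (black) and with per-library offsets for transcript length and GC content (green). Every black point lies below 0, from -0.27 for Atp5d to -1.23 for Cox4i2. The green points lie nearer 0 except those of Atp5g1 and Atp5l. Offsets here use the longest transcript, and with principal lengths Atp5g1 was at -0.64 and Atp5l at -0.20.

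**Figure D5:**
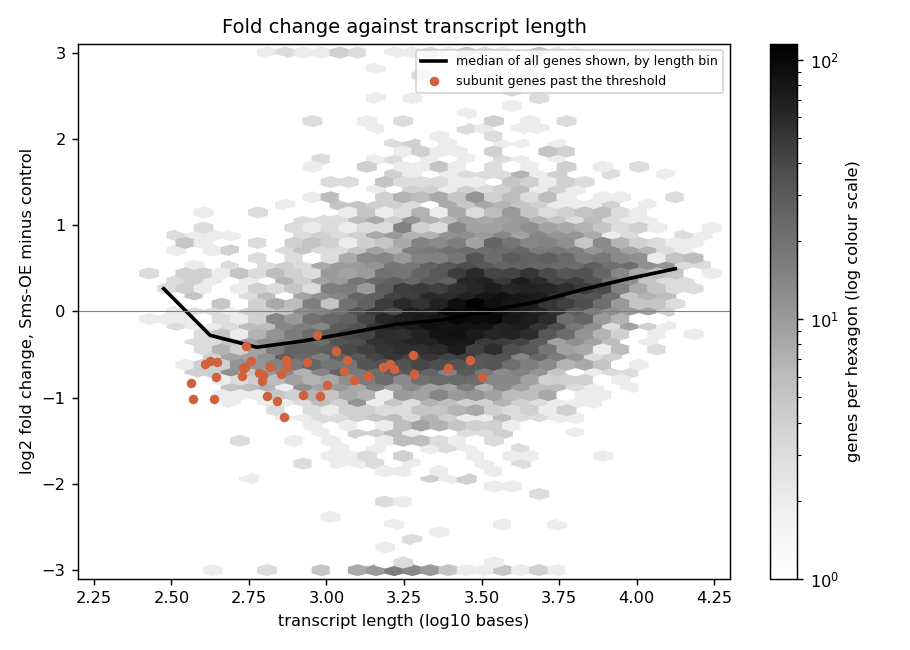
Log2 fold change (Sms-OE minus control; values beyond 3 in either direction are drawn at 3) against principal transcript length (log10 bases) for tested genes with a principal transcript, shaded by gene number, with the median by length bin as a line and the 41 called subunit genes in orange. Apart from the shortest bin the line runs from below 0 at short lengths to above 0 at long ones, and the orange points lie between -0.27 and -1.23.

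Markers of other cells differed between the groups as well, where 14.3% of all genes tested were called lower and 12.5% higher. Hepatocyte markers summed to 859, 899 and 1084 CPM in the controls and 679.5, 585 and 453 CPM in Sms-OE, with 11 of 14 lower and none higher. Hepatoma markers summed to 72.0 to 88.1 CPM against 49.4 to 69.9 CPM, with 2 of 4 tested lower. Dlk1 and Igf2 were at 0 in every library. Neither sum overlapped between the groups. Most of the hepatocyte sum came from Alb (395 and 193 CPM on average) and Trf (271 and 280 CPM), which did not pass. Most of the hepatoma sum came from Afp (63.6 and 58.0 CPM on average), which did not pass (log2 -0.13, adjusted p = 0.517). Dendritic cell markers summed to 729 to 903 CPM against 559 to 613 CPM, with 4 of 8 lower and 1 higher, and stellate cell and fibroblast markers to 77.3 to 96.0 CPM against 109 to 149 CPM, with 2 of 7 tested higher. Itgax, at 732 and 525 CPM on average, made up most of the dendritic sum. Of 8 endothelial markers 4 were lower, Kdr (-1.53), Tek (-2.12), Clec4g (-2.20) and Stab2 (-0.64), and Cdh5 was higher (0.79), with a median log2 fold change of -0.76. Their sums overlapped (148 to 168 against 120.2 to 163 CPM), and Pecam1, at 105 and 104 CPM on average, made up most of them. The sums of neutrophil markers (3815 to 6619 against 2726 to 4684 CPM), T and NK cell markers (337 to 523 against 404 to 559 CPM) and B cell markers (25.4 to 26.5 against 23.8 to 30.9 CPM) overlapped too, with 2 of 10, 1 of 10 and 0 of 5 higher and none lower. The neutrophil median was -0.40, and its higher genes, Mpo and Elane, averaged 3.87 and 1.17 CPM in the controls. S100a8 and S100a9 were lower in every Sms-OE library (-0.68 and -0.74) and Cxcr2 higher (0.22), and none of them passed. The part of these cell types in the lower subunit RNAs cannot be told apart from the group. With the mean hepatocyte and hepatoma marker level of each library as a covariate, which did not overlap between the groups, 0 of the 45 genes and 0 of all genes were called by edgeR, 0 of the 45 were lower and 3 higher at an unadjusted p under 0.05, the median of the 45 was 0.28 and their median SE rose from 0.112 to 0.488. Without Sms-OE replicates 2 and 3, which leaves 1 Sms-OE library that is assumed to vary like the controls, 27 of the 45 genes were lower and none higher, against 3.41% of all genes, and the median was -0.67.

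Genes that build the complexes were lower in part. For comparison, 14.3% of all genes tested were called lower, and 45.7% of the short protein-coding genes with a mean of at least 10 CPM. Among assembly factors of complex II 2 of 4 fell, Sdhaf4 (log2 -1.002 ± 0.19 SE) and Sdhaf2 (-0.47 ± 0.12), which helps attach the flavin to Sdha. Of 6 complex III factors 3 fell, Bcs1l (-0.80 ± 0.19), which inserts the Rieske protein, Uqcc2 (-0.66 ± 0.16) and Uqcc1 (-0.44 ± 0.13). Of 25 complex IV factors tested 9 fell and none rose, with the smallest p for Slirp (-1.15 ± 0.19), an RNA-binding protein that stabilises mitochondrial mRNA, Coa5 (-0.51 ± 0.085) and Pet100 (-0.76 ± 0.17). Of 6 complex V genes tested 2 fell, Atpif1 (-0.87 ± 0.14), the inhibitor that stops the enzyme from running backwards, and Tmem70 (-0.46 ± 0.12). The medians of these 4 lists were -0.51, -0.55, -0.45 and -0.52, and adjusted p for the named factors ran from 0.0021 to 0.0323. With the length and GC offsets 1, 0, 4 and 1 genes of the lists for complexes II, III, IV and V were lower and 1 complex IV factor was higher, with medians of -0.46, -0.29, -0.19 and -0.18. With these offsets 9.68% of all genes and 21.5% of those short genes were called lower. Whether the lists differ from these shares was not tested.

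All 6 mitochondrially encoded subunits of complexes III to V were lower too, with a median log2 fold change of -1.45, and -0.88 with the length and GC offsets. mt-Cytb, the cytochrome b of complex III, was at 5067, 6242 and 8268 CPM in the controls and 2510.2, 1936 and 1645 CPM in Sms-OE (3.21-fold lower, log2 -1.68 ± 0.20 SE, adjusted p = 0.00056). mt-Co3 of complex IV and mt-Atp6 of complex V fell by log2 values of -1.51 ± 0.22 and -1.46 ± 0.21 (adjusted p = 0.0014 and 0.0014). Reads of these genes can be shared with copies in the nuclear genome, so their levels are uncertain. Nuclear subunits of complex I, for comparison, had 31 of 36 genes lower and none higher, with a median of -0.58, or 18 lower and a median of -0.32 with the offsets. The share called lower over all genes tested was 14.3%, or 9.68% with the offsets. The differences between these sets were not tested.

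Ndufa4, now counted as a subunit of complex IV, fell from 57.7, 59.2 and 74.2 CPM to 35.03, 33.2 and 34.0 CPM (log2 -0.90 ± 0.11 SE, adjusted p = 0.00059). AA467197, whose human counterpart is a related subunit known for induction in inflammation, was at 63.8, 59.97 and 69.6 CPM against 84.3, 85.7 and 56.2 CPM and did not pass (log2 0.23 ± 0.15 SE, adjusted p = 0.295); it is named after its values were seen. Among carriers between the complexes Cycs, cytochrome c, fell (log2 -0.81 ± 0.11), as did Coq7 (-0.59 ± 0.15) and Coq6 (-0.60 ± 0.17) of ubiquinone synthesis, and Coq10b, which binds ubiquinone, rose (0.42 ± 0.10), which makes 3 lower and 1 higher of 14 tested. Of 3 ADP/ATP and phosphate carriers tested 2 fell, Slc25a5 (-0.68 ± 0.093) and Slc25a4 (-0.65 ± 0.093). Higd2a, a factor of supercomplexes, fell (-0.52 ± 0.12), and with Cox7a2l that makes 2 of 3 tested; neither was called with the length and GC offsets. Of the carriers between the complexes 2 were lower and 1 higher with the offsets, and of the ADP/ATP and phosphate carriers 2 were lower. Over all genes tested 14.3% were called lower and 12.5% higher, and 9.68% were lower with the offsets.

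General markers of mitochondria were lower, with 15 of 18 called, none higher and a median of -0.48, or 14 lower with the length and GC offsets. The shares over all genes tested were 14.3% lower and 12.5% higher, or 9.68% lower with the offsets. Phb, prohibitin of the inner membrane, the chaperone Hspd1 and the outer membrane channel Vdac1 fell by log2 values of -0.78 ± 0.081, -0.71 ± 0.090 and -0.65 ± 0.084 (adjusted p = 0.0003, 0.00068 and 0.00076). Of 16 transcription factors tested that act on respiratory genes 4 were lower and 2 higher, with a median of -0.00075. With the offsets 2 were lower and 1 higher, and Gabpb2 was not called. Whether these counts differ from the shares over all genes was not tested. Ppargc1b, a coactivator of mitochondrial biogenesis, fell from 13.5, 13.7 and 7.85 CPM to 6.30, 5.58 and 6.57 CPM (log2 -0.93 ± 0.22 SE, adjusted p = 0.0119). Tfam, which packages mitochondrial DNA and acts in its transcription, fell too (log2 -0.49 ± 0.12, adjusted p = 0.0117). Yy1 and Gabpb2 rose, by log2 values of 0.43 ± 0.081 and 0.34 ± 0.11 (adjusted p = 0.0042 and 0.0467). Nrf1 and Gabpa, named after their values were seen, gave 0.27 ± 0.11 and 0.0173 ± 0.086 and did not pass (adjusted p = 0.0946 and 0.907). Also named after their values were seen, Tfb1m and Tefm were the other lower genes (-0.69 ± 0.21 and -0.68 ± 0.22, adjusted p = 0.0379 and 0.0408). Tfb2m and Polrmt gave -0.36 ± 0.16 and 0.068 ± 0.20 and did not pass (adjusted p = 0.124 and 0.839).

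The promoters of respiratory genes are known for sites of NRF-1 and of ETS factors such as GABPA. RefSeq windows on GRCm38.p6 were matched for 33 of the 45 genes, and the 250 bases before each start were searched on both strands. An NRF-1 type motif (GCGCA, any base, then GCGC) was found in 7 of 33 genes (21.2%) and in 4.23% of all 27025 genes with such windows. CCGGAAG, an ETS type motif, was found in 9 of 33 (27.3%) and in 7.83% of all. AAGATGGCG, a YY1 type motif, was found in 1 of 33 (3.03%), the promoter of Atp5j, and in 0.710% of all. The median GC content of the windows was 54.4% for the matched genes and 52.4% for all.

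Sdhd, Atp5h and Cox6a1, of 3 different complexes, held both the NRF-1 type and the ETS type motif. These genes fell by log2 values of -0.79, -0.74 and -0.57, in a set where 41 of 45 genes fell. Their windows are shown because they hold matches to both motifs. Each is printed 5′ to 3′ on the strand of the gene, the minus strand, with the matches in capitals; the capitals of different motifs do not overlap.
Sdhd, chr9:50603850-50604099: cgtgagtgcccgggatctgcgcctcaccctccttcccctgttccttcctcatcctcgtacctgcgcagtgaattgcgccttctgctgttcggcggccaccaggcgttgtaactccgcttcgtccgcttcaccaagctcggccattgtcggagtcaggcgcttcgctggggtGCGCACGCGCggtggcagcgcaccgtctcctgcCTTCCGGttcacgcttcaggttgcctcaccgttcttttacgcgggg
Atp5h, chr11:115419920-115420169: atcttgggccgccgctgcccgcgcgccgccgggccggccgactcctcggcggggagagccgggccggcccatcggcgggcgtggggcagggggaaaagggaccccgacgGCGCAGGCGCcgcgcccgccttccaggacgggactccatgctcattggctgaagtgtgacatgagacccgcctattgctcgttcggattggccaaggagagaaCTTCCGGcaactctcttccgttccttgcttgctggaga
Cox6a1, chr5:115348959-115349208: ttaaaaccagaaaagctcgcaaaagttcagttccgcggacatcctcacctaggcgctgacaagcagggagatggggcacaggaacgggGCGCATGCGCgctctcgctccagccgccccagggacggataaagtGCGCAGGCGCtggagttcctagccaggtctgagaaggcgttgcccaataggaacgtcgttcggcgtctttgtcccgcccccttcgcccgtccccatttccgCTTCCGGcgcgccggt
The NRF-1 type match begins 79 bases before the start in Sdhd and 141 before it in Atp5h, and Cox6a1 has 2 matches, at 162 and 117. The ETS type match begins 46, 38 and 16 bases before the start in the same order. These are matches of letters, and binding was not measured.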

How the data were processed

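RNA of F4/80+ cells was sequenced in 6 libraries, 3 control and 3 Sms-OE, from oligo(dT)-selected RNA with a dUTP strand mark per the labels' protocols. The deposited values are estimated counts per gene, whole numbers that the authors did not normalize. The submitters' processing notes name HISAT2 2.2.1, cutadapt 1.9, StringTie 2.1.6, DESeq2 and FastQC 0.11.9 without their roles. Build, annotation and strand setting are not given there. Symbols, lengths and GC came from GENCODE M21 on GRCm38 by identifier, for 55141 rows. Principal transcripts were those so tagged there.

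Genes kept by filterByExpr were scaled by TMM and tested with edgeR's robust quasi-likelihood F-test (version 4.0.16, in R 4.3.3). P-values of the 18277 genes were adjusted by Benjamini-Hochberg, with a threshold of 0.05. Adjusted p-values are from this test unless another is named. Log2 fold changes are Sms-OE minus control with a prior count of 0.125, and SE were derived from the F statistic. Shares and sums were compared by two-sided exact permutation. The steps were run on simulated counts with far fewer changed genes than were called here, so error rates for these data were not measured. Alternatives were other scalings, filters and tests (DESeq2 1.42.0, limma 3.58.1), offsets, a marker covariate, a replicate block and libraries left out.

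Groups and replicate numbers came from the titles; within a group at most 17.3% of genes had identical counts. Library totals were 49833764 to 58154006, and intervals from counting alone are not given since estimated counts carry unknown counting error. Full statistics are given for complex II, and elsewhere for the 3 genes of smallest p, the 2 of highest level per length and those that did not pass. Genes named outside this, such as Atp5g1, Atp5d and Cox4i2, were chosen after their values were seen. For each pathway list up to 3 called genes of smallest p and any that moved against the list are named. The rule for the members used symbols and counts and no fold change. This rule and the lists were chosen with earlier results of these data known. Reads of paralogs, pseudogene copies and overlapping antisense genes could be split in counting.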

Additional observations from a re-analysis of the deposited data

Results flagged for a closer look

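Cox8b, the heart and muscle form of subunit 8 of complex IV, lies outside the genes tested because it did not reach 10 counts in 3 libraries. It had 0 counts in each of the 3 controls and 6, 26 and 47 counts in Sms-OE replicates 1, 2 and 3. It is given here for having counts in each Sms-OE library and in no control. The difference was not tested, and the counts varied widely within the Sms-OE group. The 2 higher values are in the libraries that also hold Myh6 and most haemoglobin RNA.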

How the results depend on the processing

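The 45 genes kept a negative median, with 38 to 41 of them lower, under every other scaling, filter and test at this threshold and with any 1 library left out; the exceptions follow. Medians are given for the 45 genes, complexes II, III, IV and V, and the pathway lists in that order. With length and GC offsets they were -0.41, -0.44, -0.36, -0.30, -0.48 and -0.28, with 5 of complex III and 7 of complex IV lower. With principal lengths, added after the data were seen, they were -0.38, -0.47, -0.33, -0.29, -0.41 and -0.29, with 7 of complex IV lower and 7 pathway genes higher. Libraries with the same replicate number had correlations of deviations of 0.065, 0.020 and -0.0075. The highest with another number were 0.0020, 0.0063 and 0.044. With so few libraries these values cannot tell whether the numbers mark pairs. With the replicate block 39 of the 45 were lower and the median was -0.67, and with the block and offsets the medians were -0.41, -0.44, -0.37, -0.27, -0.45 and -0.28, with 7 of complex IV lower and 5 pathway genes higher. With a covariate for the mean hepatocyte and hepatoma marker level 0 of the 45 genes and 0 pathway genes passed in either direction in edgeR (0 of the 45 lower and 3 higher at an unadjusted p under 0.05, and 0 of all genes called), and the medians were 0.28, -0.36, -0.0652, 0.35, 0.32 and -0.15; the covariate's libraries did not overlap between the groups, and the median SE of the 45 rose from 0.112 to 0.488. Log2 fold changes with a turned sign in that fit were Uqcr10 0.61, Cox6a2 -5.84, Atp5e 0.12, Atp5f1 0.0759, Cox5b 0.48, Atp5mpl 1.65, Atp5g1 0.32, Uqcrb 0.26, Cox6b2 4.19, Atp5j2 1.05, Atp5l 0.65, Atp5g2 0.48, Cox7a2l 0.45, Atp5h 0.50, Uqcrh 0.88, Atp5d 0.36, Cox6a1 0.28, Cox6c 0.83, Cox8a 0.33, Cox6b1 0.35, Atp5k 0.42, Sdhb 0.0767, Cox4i1 0.32, Atp5j 0.32, Uqcr11 1.26, Cox7a2 0.25, Cox7c 0.94, Cox7b 0.69, Gabpb2 -0.42, Sdhaf2 0.24, Slirp 0.0654, Pet100 0.47, Atpif1 0.64, mt-Cytb 0.95, mt-Atp6 1.36, mt-Co3 1.43, Higd2a 0.47. Without the 2 haemoglobin-rich libraries 27 of the 45 genes, 6 of complex IV, 10 of complex V, 14 pathway genes lower and 0 higher were called, the complex II median was -0.60, and Cox6a2 and Cox7a1 were at -6.35 and -1.59. Cox7a1 was also negative with limma-voom (-0.24), with the block (-0.049) and without Sms-OE replicate 2 or control replicate 1, in a range over single left-out libraries of -0.40 to 0.57, and Cox6b2 was positive without control replicate 3, in a range of -1.25 to 0.11. The cause was not tested. With 1 library left out, 34 to 47 pathway genes were lower and 1 to 3 higher, with medians of -0.52 to -0.42, complex III had medians of -0.74 to -0.63, and the paralog share differences ran from -2.77 to 1.05 points for Atp5g2, -0.36 to 3.64 for Atp5g3 and -0.13 to 0.38 for Cox6b2. The Atp5g2 share was 0.767 points higher with no length scaling and 0.855 with principal transcripts, against -0.33. With library size alone the pathway median was -0.39, and at an adjusted p under 0.01 there were 36 of the 45 genes lower, 27 pathway genes lower and 1 higher.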
